A study of Oryza sativa with 24 samples.

Results

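The step from pollen filling (stage 7) to pollen maturation (stage 8) was followed in young panicles of rice (Oryza sativa, indica cultivar IR64) by RNA sequencing. Of the 24 deposited columns, 12 carry these stages, and 10 distinct libraries among them were compared, 6 at stage 8 and 4 at stage 7. At stage 8 there were 3 wild-type libraries and 3 libraries of the tps2/tps3/tps6 triple mutant, in which all 3 genes were edited in the IR64 background. At stage 7 there was 1 wild-type library, 1 mutant library and 2 libraries (replicates 2 and 3) whose mutant and wild-type columns were identical in every row. These 2 entered once each, their genotype is unresolved, and the genotypes were pooled. The labels name no treatment and 1 growth protocol for all plants. They do not say how many edited lines were used. Each library is a whole young panicle sample, so pollen, anther wall, pistil and the green outer organs are read together. Fewer cells of a type and less RNA per cell cannot be told apart in such samples.

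After meiosis the microspores of rice divide, fill with starch and other reserves and become mature pollen, while the tapetum, the inner anther layer that feeds them, breaks down. Maturing pollen is known in plants for a large set of transcripts that are little used in other tissues and are stored for germination. The tps genes encode class II trehalose phosphate synthases, relatives of the enzyme that makes trehalose 6-phosphate, a sugar signal, and most class II members are regarded as having little or no synthase activity of their own.

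The files pair no identifier with a gene name, and 0 of the 36099 identifiers matched the reference table. The edited genes, cell type markers and pathway lists could therefore not be read, so neither the genotype labels nor the tissue was checked against marker genes. Genes are given by identifier, 2 that rose and 2 that fell. The 10 libraries held between 11596245 and 13671337 counts each.

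Stage 8 libraries were less alike than stage 7 libraries. Correlations of log2 CPM across genes were 0.931 to 0.980 among the 4 stage 7 libraries and 0.834 to 0.956 among the 6 stage 8 libraries, and 0.747 to 0.920 between the stages. CPM is a count taken per 1e6 of the TMM-normalized library size. The spread between the libraries of a stage, as edgeR's common biological coefficient of variation, came to 28.0% at stage 7 and 43.9% at stage 8. These 2 values pool the genotypes and so include any difference between them. Within stage 8 it was 28.0% in the 3 wild-type and 52.3% in the 3 mutant libraries. Mutant replicates 1 and 2 of stage 8 stood apart, with correlations to stage 7 of 0.747 to 0.819 against 0.858 to 0.920 for the other 4 stage 8 libraries. The main results of the step are also given without these 2 libraries.

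**Figure D1:**
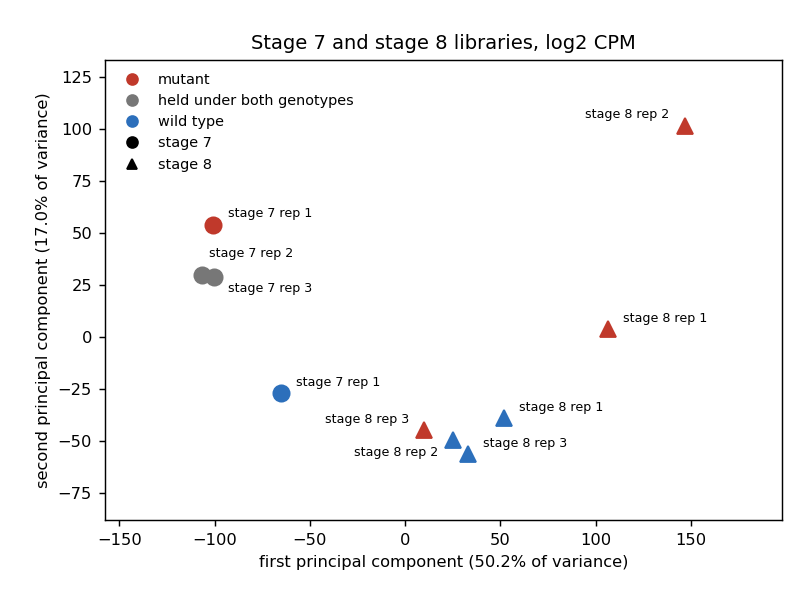
Principal components of log2 CPM of the 22116 tested genes in the 10 libraries. Axes are component scores with no unit, with 50.2% and 17.0% of the variance. Circles are stage 7, triangles stage 8, and colours give the genotype. All stage 7 libraries lie left of all stage 8 libraries, and mutant replicates 1 and 2 of stage 8 lie farthest right.

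From stage 7 to stage 8, 2687 genes rose and 2595 fell, which is 23.9% of the 22116 genes tested (12.1% higher and 11.7% lower; edgeR quasi-likelihood test, Benjamini-Hochberg adjusted p under 0.05). Without mutant replicates 1 and 2 of stage 8, 2740 rose and 2988 fell. All 6 stage 8 libraries stood above all 4 stage 7 libraries for 1753 of the 2687 genes that rose. Over all 22116 genes tested this held for 1942 (8.78%). All 6 stood below for 2166 of the 2595 genes that fell, beside 2646 (12.0%) of all genes tested. The same 10 libraries called the genes, so such separation follows in part from the call. With library totals in place of TMM scaling the split was 3400 higher and 2114 lower, so the near balance of directions rests on the scaling. The count fell to 3123 without stage 7 replicate 2 and 3354 without stage 7 replicate 3. Without both it was 739, of which 246 rose and 493 fell. All 739 but 2 were among the 5282, and in that fit all genes that rose in the 10 libraries kept a positive and all that fell a negative fold change.

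Among called genes with no overlap between stages and at least 5 CPM at the higher one, OsIR64_06g0024930 had the greatest fitted rise. It had no count in any library of stages 5, 6 and 7, so the filter kept it only through stage 8. Its fold and p value therefore rest in part on the filter and on its choice as the greatest rise. At stage 8 it stood at 166, 202 and 6.93 CPM in mutant replicates 1, 2 and 3 and at 53.2, 33.2 and 29.9 CPM in wild-type replicates 1, 2 and 3. It was thus read in all 6 stage 8 libraries and in none of the 4 at stage 7, and mutant replicates 1 and 2 were the highest and mutant replicate 3 the lowest. Against a floor of 3 counts over the stage 7 group (0.0629 CPM), the stage 8 mean of 81.9 ± 81.3 CPM (SD, n = 6) was at least 1302-fold higher and the lowest library at least 110-fold higher (edgeR adjusted p = 0.0079). Without mutant replicates 1 and 2 the mean was 30.8 ± 19.0 CPM (SD, n = 4), at least 489-fold higher. The call was lost without the 2 libraries of unresolved genotype (edgeR adjusted p = 0.083, range over 23 alternatives 7.8e-15 to 0.086).

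OsIR64_01g0022740 had the greatest gain in CPM. At stage 7 it stood at 201 CPM in the mutant library, 105 and 147 CPM in the 2 libraries of unresolved genotype, and 770 CPM in the wild-type library. At stage 8 it reached 2756, 2687 and 1331 CPM in mutant replicates 1, 2 and 3 and 2233, 2329 and 2129 CPM in wild type. The wild-type stage 7 library was the highest of its stage. That the stages did not overlap was required for the choice of the gene. The mean was 306 ± 312 CPM (SD, n = 4) at stage 7 and 2244 ± 512 CPM (SD, n = 6) at stage 8, a rise of 2.90 log2 units (SE 0.56, edgeR adjusted p = 0.0046), and the call held in all 23 alternatives. Earlier it was near 0, with 0.0945 ± 0.0936 CPM (SD, n = 6) at stage 5 and 1.25 ± 0.633 CPM (SD, n = 5) at stage 6.

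OsIR64_11g0001060 had the greatest fitted fall. It stood at 185 CPM in the mutant, 286 and 302 CPM in the unresolved and 104 CPM in the wild-type library of stage 7. At stage 8 it stood at 11.3, 5.13 and 9.63 CPM in the mutant and 6.47, 13.8 and 13.4 CPM in wild type. The genotypes overlapped at stage 8. That every stage 8 library was below every stage 7 library was required for the choice of the gene. The mean was 219 ± 92.5 CPM (SD, n = 4) at stage 7 and 9.96 ± 3.58 CPM (SD, n = 6) at stage 8, a fitted log2 change of -4.43 (SE 0.35, edgeR adjusted p = 4.7e-05), and the call held in all 23 alternatives. It had been at 58.3 ± 24.1 CPM (SD, n = 6) at stage 5 and 312 ± 54.6 CPM (SD, n = 5) at stage 6.

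OsIR64_09g0014580 lost the most counts. It stood at 9208 CPM in the mutant, 8073 and 7412 CPM in the unresolved and 8469 CPM in the wild-type library of stage 7. At stage 8 it stood at 3293, 2065 and 4078 CPM in mutant replicates 1, 2 and 3, and at 5370, 6284 and 4829 CPM in wild type. The 3 mutant libraries were below the 3 wild-type ones at stage 8. No overlap between the stages was again required for the choice. The mean was 8291 ± 751 CPM (SD, n = 4) at stage 7 and 4320 ± 1511 CPM (SD, n = 6) at stage 8, a fitted log2 change of -0.92 (SE 0.25, edgeR adjusted p = 0.018). The call was lost in 5 of 23 alternatives, over which the edgeR or DESeq2 adjusted p ranged from 0.0015 to 1. These were the fit without the mutant stage 7 library (0.058), the 8 libraries of resolved genotype (0.12), the same with genotype as covariate (0.058), the wild-type libraries alone (0.35) and the 2-fold minimum (1). Earlier levels were 3289 ± 919 CPM (SD, n = 6) at stage 5 and 6452 ± 1419 CPM (SD, n = 5) at stage 6.

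**Figure D2:**
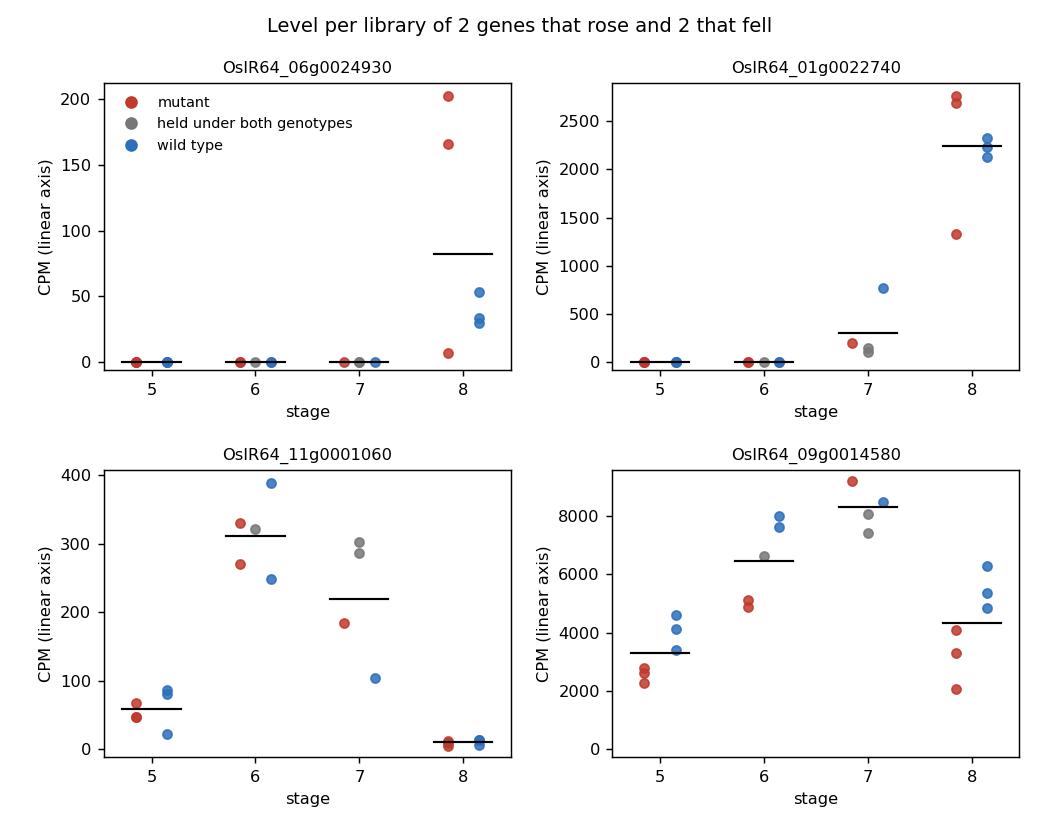
CPM (linear axes) of the 4 named genes in the 21 distinct libraries by stage. Points are libraries, coloured by genotype, and bars are stage means. OsIR64_06g0024930 and OsIR64_01g0022740 are highest at stage 8, while OsIR64_11g0001060 and OsIR64_09g0014580 are lower at stage 8 than at stages 6 and 7.

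Among the genes called, large changes were more often rises than falls. The median log2 fold change was 1.28 (2.44-fold) over the 2687 that rose and -0.97 (1.95-fold) over the 2595 that fell, against 0.05 over all genes tested. Changes of at least 4-fold numbered 862 among genes that rose (32.1%) and 342 among those that fell (13.2%). At 16-fold or more there were 367 and 13. In these values 105 genes that rose, with no count in any stage 7 library, and 2 that fell, with none at stage 8, stand at their lower bound against the floor of 3 counts. The filter kept genes with no count at stage 7 only through stage 8, and the reverse, and stage 8 had more libraries. Of all genes tested, 111 had no count at stage 7 and 2 had none at stage 8. The numbers of large rises and large falls are therefore not on an equal footing. When the test itself required a change above 2-fold, 363 genes rose and 233 fell. Without mutant replicates 1 and 2 of stage 8 the medians were 1.02 and -0.88, with 581 and 295 genes at 4-fold or more and 138 and 12 at 16-fold or more. These sizes come from the libraries that called the genes. In libraries outside the calling fit the difference was not uniform. Those readings were on log2(CPM + 0.5), which shrinks changes at low levels and is unlike the fitted sizes above. Of the 2687 genes that rose, 16.7% had a stage 7 mean under 0.5 CPM. Of the 2595 that fell, 2.24% had a stage 8 mean that low. Rises could thus be shrunk more than falls. Genes called in the mutant columns had medians of 0.69 and -0.68 in wild type. When each of the 10 libraries was read against genes called without it, the medians were 0.70 to 1.63 for genes that rose and -1.26 to -0.75 for genes that fell. The rise was not the larger in mutant replicate 2 (1.05 and -1.19) and replicate 3 (0.90 and -0.90) of stage 8 and in the wild-type stage 7 library (0.70 and -0.75), and it was in the remaining libraries.

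**Figure D3:**
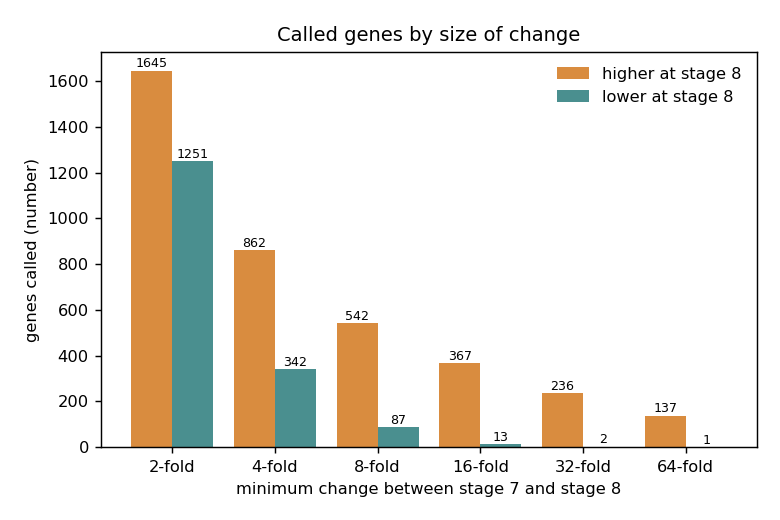
Number of called genes (vertical axis) with at least the change on the horizontal axis, for genes higher (orange) and lower (teal) at stage 8. From 4-fold up, genes that rose outnumber those that fell, by 862 to 342 at 4-fold and 137 to 1 at 64-fold. With genes called without mutant replicates 1 and 2 of stage 8, not drawn, the numbers were 581 and 295 at 4-fold. At 64-fold they were 42 and 0.

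The share of genes that rose varied little with the count level, whereas the share that fell grew with the level. With the tested genes cut into 5 bins of 4423 or 4424 by mean CPM of both stages, 10.6% rose in the lowest and 10.9% in the highest bin, with up to 13.3% between. The share that fell went from 2.94% in the lowest bin to 8.12%, 10.2%, 14.4% and 23.0%. Without mutant replicates 1 and 2 of stage 8, 9.27% to 14.9% rose, and the share that fell went from 4.65% in the lowest to 25.0% in the highest bin. Of genes with a mean of at least 100 CPM at the higher stage, 373 rose and 833 fell. CPM is not scaled by gene length, so these bins rank counts and not transcript numbers.

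More genes met a rule for switching on than for switching off. At stage 8, 171 genes that rose had a mean of at least 5 CPM after a stage 7 mean under 0.5 CPM, and 5 genes that fell did the reverse. Of all genes tested, 182 and 5 had such levels. Genes this low at 1 stage were kept through the other, and stages 8 and 7 had 6 and 4 libraries. The 2 counts are therefore not on an equal footing. Of the 171, 164 also had a mean under 0.5 CPM at stages 5 and 6. Their median level was 25.9, 25.2 and 1.39 CPM in mutant replicates 1, 2 and 3 of stage 8 and 7.91, 3.91 and 4.51 CPM in wild-type replicates 1, 2 and 3. In the 4 stage 7 libraries it was 0 to 0.180 CPM, the highest being the wild-type library. Mutant replicates 1 and 2 had 167 of the 171 at 5 CPM or more, mutant replicate 3 had 33, and the wild-type libraries had 71 to 123. In mutant replicate 3, 51 of the 171 stayed under 0.5 CPM, and 19 reached 5 CPM in all 6 stage 8 libraries. They took 0.910%, 0.929% and 0.0486% of all counts in mutant replicates 1, 2 and 3 and 0.126% to 0.244% in wild type. Without mutant replicates 1 and 2 the same rule gave 69 genes switched on and 4 switched off, and leaving out single libraries gave 114 to 199 and 3 to 8.

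**Figure D4:**
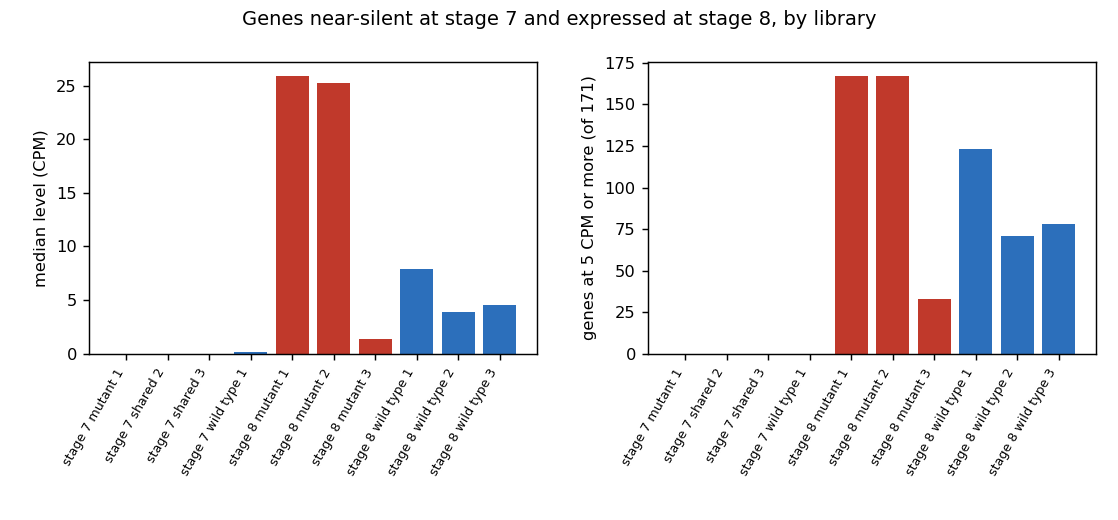
The 171 genes with a stage 7 mean under 0.5 CPM and a stage 8 mean of at least 5 CPM, by library (bars, coloured by genotype; shared means held under both genotypes). The left axis is their median CPM and the right axis the number at 5 CPM or more. Stage 8 libraries range from 1.39 to 25.9 CPM and from 33 to 167 genes, and no gene of the set reaches 5 CPM in a stage 7 library.

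The genes that rose took 6.18% to 8.97% of all counts in the stage 7 libraries and 14.5% to 19.6% at stage 8. The genes that fell went from 25.3% to 30.6% at stage 7 to 13.5% to 17.3% at stage 8. These shares describe genes chosen on the same libraries. With genes called without mutant replicates 1 and 2, the shares were 7.76% to 11.3% at stage 7 and 17.6% to 18.4% at stage 8 for genes that rose, and 27.8% to 33.6% and 18.4% to 19.3% for genes that fell. The wild-type stage 7 library was the closest to stage 8 on both counts, with 8.97% and 25.3%, and mutant replicates 1 and 2 of stage 8 were the farthest from stage 7, with 19.3% and 19.6% in genes that rose. Of the 2595 genes that fell, 2154 (83.0%) kept a stage 8 mean of at least 5 CPM, beside 72.3% of genes not called. At stage 7 the shares had been 96.2% and 71.8%, so the genes that fell started from higher counts. Mutant replicate 2 of stage 8 had 127 of the genes that fell at 0 counts, and the other 5 stage 8 libraries 12 to 34.

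Genes that rose had been at low levels before more often than genes not called, in part through the way genes were kept and called. The filter used stage 7 and 8 counts alone. A gene with no count at stage 7 was thus kept only through stage 8, and of 111 such genes tested 105 were called higher. At stage 5, 1402 of the 2687 (52.2%) had a mean of at least 5 CPM and 745 (27.7%) were under 0.5 CPM, beside 68.6% and 9.87% of the genes not called. Of the 2740 genes that rose without mutant replicates 1 and 2 of stage 8, 57.9% had at least 5 CPM at stage 5. The 2687 genes had a median level of 5.99 CPM at stage 5, 6.73 CPM at stage 6, 10.3 CPM at stage 7 and 26.9 CPM at stage 8. The genes that fell had a median of 47.5, 61.6, 59.7 and 30.0 CPM at stages 5, 6, 7 and 8. Stages 7 and 8 chose both lists, so the medians at these stages follow from the choice. The 16834 genes not called stayed at 15.7, 15.8, 16.1 and 16.4 CPM.

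Entry into meiosis, from stage 5 to stage 6, shares no library with this step and was fitted separately on 6 stage 5 and 5 stage 6 libraries. It called 29.9% of 19983 genes, 16.8% higher and 13.1% lower. Of the 2545 genes that fell from stage 7 to 8 and were tested in both steps, 1169 (45.9%) had risen from stage 5 to 6 and 151 (5.93%) had fallen. Over all 19511 genes tested in both, 17.1% had risen and 13.0% had fallen. The 1169 were 34.96% of the genes tested in both steps that rose from stage 5 to 6, beside 13.0% of all genes tested in both that fell late. Of the 1914 genes that rose late, 218 (11.4%) were higher and 350 (18.3%) lower at stage 6 than at stage 5. Without mutant replicates 1 and 2 of stage 8, 44.1% of genes that fell late had risen early, and genes that rose late had 12.8% higher and 15.8% lower early. Since genes with more counts were called more often, the shares were also read within the 5 level bins. Among genes that fell late, 36.9% to 52.5% had risen early in each bin, beside 8.73% to 29.0% of all genes of the bin. Genes that rose late had a smaller share higher early than all genes in each bin (1.49% to 20.3%). Their share lower early differed between bins: from the lowest bin up it was 10.4%, 8.77%, 20.1%, 22.5% and 19.6%, beside 9.34%, 12.9%, 15.7%, 14.4% and 11.1% of all genes. It was thus under the share of all genes in 1 bin, and in the highest bin more of these genes were higher (20.3%) than lower (19.6%). Both named genes that fell late had risen early. OsIR64_11g0001060 rose from stage 5 to 6 by 2.39 on the log2 scale (edgeR adjusted p = 1.8e-04) and OsIR64_09g0014580 by 0.95 (edgeR adjusted p = 0.0022).

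**Figure D5:**
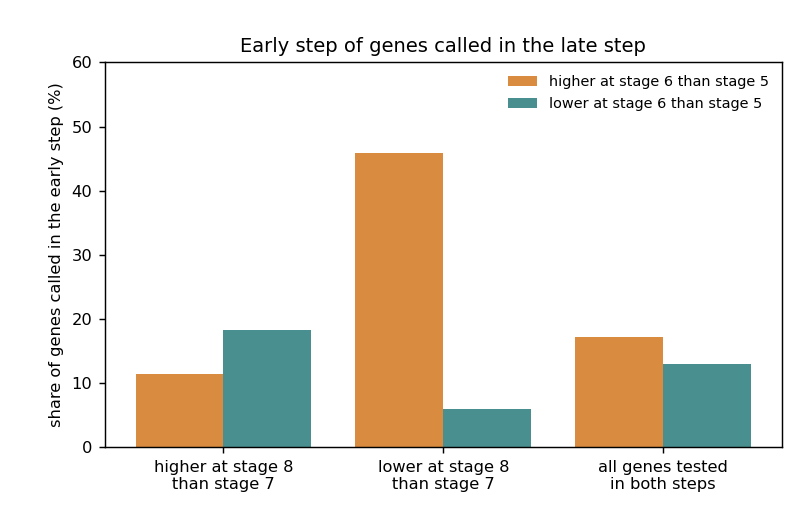
Share (%) of genes called higher (orange) or lower (teal) at stage 6 than stage 5, among genes higher at stage 8 than stage 7, genes lower at stage 8, and all 19511 genes tested in both steps. Genes that fell late had risen early in 45.9% of cases, against 17.1% of all genes.

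Directions of change were mostly shared by separate sets of libraries. The columns labelled mutant, 3 at each stage, called 18.5% of 21486 genes, 1908 higher (8.88%) and 2063 lower (9.60%). These genes were then read in the 4 wild-type libraries, none of which entered that fit. Of the 1908, 95.3% had a higher wild-type mean at stage 8 than in the stage 7 library, and of the 2063, 95.9% a lower one, against 48.9% and 51.1% of all genes tested. All 3 wild-type stage 8 libraries were above the stage 7 library for 79.9% of the 1908, beside 28.9% of all genes, and below it for 87.3% of the 2063, beside 31.0%. The median log2 difference in wild type, on log2(CPM + 0.5), was 0.69 for the first list and -0.68 for the second. In the mutant columns, which called these genes, the median fitted log2 changes were 1.65 and -1.28. Fitted changes lack the added 0.5 CPM, so the 2 measures are not alike. Tested alone with 1 stage 7 library, the wild-type libraries called 266 genes higher (1.14%) and 288 lower (1.23%), together 2.37% of 23414.

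Each library was also read against genes called without it. For a left-out stage 8 library, 90.9% to 99.6% of the genes called higher stood above the mean of the stage 7 libraries and 96.1% to 99.9% of those called lower stood below it, while 47.7% to 50.7% of all genes stood above. For the left-out stage 7 libraries the median gain of genes called higher was 1.36 to 1.63 on log2(CPM + 0.5) in 3 libraries and 0.70 in the wild-type one. These medians rest on different gene lists. The list held 2716 genes for the wild-type library and 1767, 1478 and 1594 for stage 7 replicates 1, 2 and 3 of the mutant columns. They do not rank the libraries on the same genes. The libraries of the other stage are shared between the calling and the reading.

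Whether the step differed between the genotypes was tested on the 8 libraries of resolved genotype, with 1 per genotype at stage 7 that was assumed to vary like the others. In edgeR 0 genes passed (0%), and 794 of 24786 genes (3.20%) had an unadjusted p under 0.05. That number was 1703 (6.94%) without mutant replicate 3 of stage 8, 1647 (6.46%) in the fit of 18 libraries, and 487 (1.98%) and 523 (2.13%) without wild-type replicates 1 and 2 of stage 8. It was 1245 with the shared libraries taken as mutant and 1204 without mutant replicate 2. DESeq2 called 25 genes, and edgeR called 24 without mutant replicate 3 of stage 8. The fitted log2 difference of the step, mutant minus wild type, was 1.99 for OsIR64_01g0022740, -1.16 for OsIR64_11g0001060 and -0.89 for OsIR64_09g0014580. OsIR64_06g0024930 had no count in either stage 7 library of this fit, so its difference could not be read. With 1 library per genotype at stage 7, a difference between genotypes and one between those 2 libraries cannot be told apart.

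The gain in the number of genes read did not pass 0.05 once adjusted, and the share of counts in the top genes depended on how many were taken. At stage 7, 20455 ± 78.4 genes (SD, n = 4) had at least 1 CPM and at stage 8 20921 ± 362 (SD, n = 6), a gain of 466 (2-sided exact permutation test, p = 0.048, adjusted p = 0.095 over 2 such tests). Mutant replicate 2 of stage 8, with 20298, was below all stage 7 libraries, and mutant replicate 1, with 21397, the highest. The unadjusted exact permutation p of the gain was 0.0079 to 0.11 with 1 library left out. It was 0.033 with counts thinned to the smallest total. The 100 genes with the most counts took 13.4% ± 0.495 of counts at stage 7 (SD, n = 4) and 13.0% ± 0.907 at stage 8 (SD, n = 6). This difference did not pass 0.05 (2-sided exact permutation test, p = 0.44). The 1000 genes with the most counts took 38.7% ± 0.596 at stage 7 (SD, n = 4) and 36.4% ± 1.46 at stage 8 (SD, n = 6), a difference of -2.38 points (2-sided exact permutation test, unadjusted p = 0.019).

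Called genes lay along the whole series of identifiers. In the 12 numbered prefixes of the identifiers, 11.4% to 13.1% of tested genes rose and 9.96% to 13.2% fell. When the next identifier was also tested, it was called in the same direction for 14.5% of genes that rose, beside 11.8% over all such pairs, and for 13.8% of genes that fell, beside 12.0%. The longest run of consecutive identifiers was 5 in each direction. Identifiers were read as labels, and no genome position was taken from them.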

How the data were processed

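The authors deposited raw counts for each gene. They mapped trimmed read pairs to the IR64 genome with STAR and counted them with HTSeq-count against its high-confidence gene models, per the series design text. Trimmomatic 0.39 and kallisto are named in the submitters' processing notes. The strand setting and the version of the gene models are not stated there, so counts of near-identical, overlapping or antisense genes are uncertain.

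All columns were compared pairwise, and 3 identical mutant and wild-type pairs were entered once. Genes were kept by filterByExpr (minimum count 10, minimum total 15), scaled by TMM and tested with glmQLFit and glmQLFTest of edgeR 4.0.16 (R 4.3.3, robust), on stage alone, with 8 residual degrees of freedom. Standard errors came from the log2 fold change and its F statistic. CPM used TMM factors of all 21 libraries. Alternatives were RLE factors, no filter, DESeq2 1.42.0, all 4 stages in one fit, a replicate block, a 2-fold minimum, genotype subsets, the columns as deposited and each library left out. Library totals and leaving out mutant stage 8 replicates 1 and 2 were chosen after seeing the data. Tests were tried on simulated counts.

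The comparison and its lists were chosen with earlier results of these data known. Named genes were called, had no overlap between stages and a mean of at least 5 CPM at the higher stage. The greatest log2 change and the greatest CPM change were taken each way.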

Additional observations from a re-analysis of the deposited data

Results flagged for a closer look

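The wild-type stage 7 library stood far from the other 3 stage 7 libraries for OsIR64_01g0022740, at 770 CPM against 105, 147 and 201 CPM. Its gap to the next library was 0.856 of the range of the 4. It was the 1 group marked among 17 groups of values examined, and about 1 in 20 is marked by chance.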

How the results depend on the processing

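For the count of genes changed from stage 7 to 8 (5282; 2687 higher, 2595 lower), a 2-fold minimum gave 596 (363 and 233), the 8 libraries of resolved genotype 739 (246 and 493), the same with genotype as covariate 1025 (362 and 663), the wild-type libraries alone 554 (266 and 288) and the 12 columns as deposited, with each identical column kept, 8058 (4198 higher). Leaving out 1 library gave 3123 to 5798 genes, 1478 to 2831 higher and 1645 to 2967 lower; the lowest came without stage 7 replicate 2, and 1767 and 1594 rose without stage 7 mutant replicate 1 and replicate 3. Other settings stayed within 1.5 times. No alternative reversed a named gene. For the genotype difference of the step, DESeq2 gave 25 genes (17 larger and 8 smaller in the mutant), and leaving out a stage 8 library gave 0 to 24 (0 to 19 and 0 to 5), the highest without mutant replicate 3; a lone stage 7 library could not be left out there. From stage 5 to 6, leaving out 1 library gave 4868 to 6461 genes (2849 to 3463 higher, 2019 to 2998 lower). The gain in genes read was 450 at 0.5 CPM (exact permutation p = 0.090) and 220 at 5 CPM (p = 0.086), and 371 to 591 without 1 library. The share of counts in the top genes fell by 2.38 percentage points when 1000 genes were taken (2-sided exact permutation p = 0.019), and changed by -0.615 to -0.139 points for 100 genes without 1 library.

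Replicate numbers did not pair the libraries: correlations of same-numbered deviations were 0.038, 0.077 and 0.075 between the genotypes at stage 8 and 0.038, -0.095 and 0.071 between the stages. With a replicate block, 4955 genes changed (2442 higher, 2513 lower), 0 differed between the genotypes in the step, and 5899 changed from stage 5 to 6. Totals were even across the 10 libraries, and a gain thinned to the smallest total was 482 genes.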
